A study of Sus scrofa with 3 samples.

Results

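Immediate early genes were examined in the livers of 3 groups of male Wuzhishan miniature pigs. The list held 10 genes, FOS, FOSB, JUN, JUNB, EGR1, IER2, IER3, ATF3, DUSP1 and NR4A1, out of 34579 features in the deposited tables. Of the 10, 7 were listed under their own symbol, and JUN and ATF3 were found under other names, JUN as the entry C-JUN and ATF3 as LOC100738612, through the synonyms and gene IDs of RefSeq. FOSB was not matched to an entry and was not analysed here, so that 9 genes are described. The list was chosen from the values of these same libraries, with earlier results of them known, so every value below is a description and none is a test. Counts of genes past a threshold are given over the 6 that were typed as mRNA under their own symbol, FOS, JUNB, EGR1, IER2, IER3 and DUSP1. NR4A1 was typed as noncoding RNA, and RefSeq lists the pig entry as a pseudogene, so its values are uncertain.

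All pigs were of the same miniature breed, were 6 to 7 months old by the labels, and were kept on feed rich in fat and cholesterol, the HFC diet. The study's methods give that age for the pigs as obtained. Weeks of acclimation and then of HFC feeding followed, so the pigs were older when the livers were taken. IM pigs were intact males given a sham operation, CM pigs were surgically castrated, and CMT pigs were castrated and injected with testosterone propionate every week from the day of surgery. No group ate a standard diet, so the values do not bear on the diet itself. Liver RNA of each group was pooled and sequenced as 1 library. The labels give 3 pigs in each pool, whereas the study's methods describe larger groups and do not say how many animals entered a pool. The pigs were killed by exsanguination under anaesthesia, and the livers were removed, weighed and then frozen at once in liquid nitrogen. With 1 pool per group there is no replicate check, no p-value was computed, and the spread between pigs is unknown.

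Immediate early genes are transcribed within minutes of a stimulus and need no newly made protein to be switched on. Growth factor, stress and calcium signals reach them through MAP kinases and through factors already bound at their promoters, such as SRF with its ternary complex partners. Their transcripts are short-lived, and in liver they are known to respond to feeding, hormones, partial hepatectomy, loss of blood flow and the handling of the tissue. Many encode transcription factors. FOS and JUN family proteins pair to form AP-1, and ATF3 can join such pairs. Others, such as DUSP1, encode proteins that shut the signal off again.

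The unit was the deposited FPKM, the reads per kilobase of transcript divided by a number that stands for the size of the library. FPKM values were compared as deposited, as ratios and their log2, with no pseudocount. Within most features the values were whole multiples of a step, from which the number of reads behind each value was recovered for 95.1% of the features above 0. The recovered reads summed to 32197629 in IM, against 36126750 in CM and 25419901 in CMT. On a transcript of 1 kb, 3 reads gave an FPKM of 1.20 in IM, against 0.877 in CM and 1.47 in CMT. Each interval below is a 95% exact binomial (Clopper-Pearson) interval on the recovered reads of both libraries, and covers counting error only, since reads copied by PCR, or both mates of a pair, are not independent molecules. The divisors in the values, 2.51 in IM, against 3.42 in CM and 2.04 in CMT, were not in proportion to the recovered reads. Scaling to the recovered reads instead would raise every log2 ratio of CM to IM by 0.28 and lower every log2 ratio of CMT to CM by 0.24. The ratio of CMT to IM would move by 0.04 only. All 27 ratios of the 9 genes kept their direction under each scaling and with the pseudocount that were run. The divisors were also far smaller than the library sizes by which the usual definition of FPKM divides. The deposited values therefore lay well above FPKM by that definition, and the minimum of 1 used below was a lower bar than its name implies. Levels, sums and the minimum are given on the deposited scale only.

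FOS, the AP-1 subunit that is itself a classical marker of recent stimulation, had an FPKM of 630 in IM, against 842 in CM and 145 in CMT. These values rested on 1808, 3292 and 338 reads. FOS was 1.34-fold higher in CM than in IM (interval 1.26 to 1.42), and 5.81-fold lower in CMT than in CM (ratio 0.172, interval 0.153 to 0.193). CMT was therefore the low library for FOS, and it also lay 4.35-fold below IM (ratio 0.230, interval 0.204 to 0.258). The higher value in CM stayed under 1.5-fold as deposited. It passed 1.5-fold, at a log2 ratio of 0.70, with the libraries scaled to the recovered reads.

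JUN, the subunit with which FOS most commonly pairs, followed another order. Its FPKM was 1761 in IM, against 1231 in CM and 925 in CMT. JUN was 1.43-fold lower in CM than in IM (ratio 0.699, interval 0.673 to 0.727), and 1.33-fold lower in CMT than in CM (ratio 0.752, interval 0.715 to 0.790). It thus stepped down from IM to CM to CMT, with 1.90-fold between the ends (ratio 0.526, interval 0.50 to 0.552). The transcript length recovered from the steps of the values, 1211 bases, was the same as the length that RefSeq gives for the pig JUN gene.

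JUNB encodes a JUN family protein that activates transcription less strongly than JUN. JUNB had an FPKM of 322 in IM, against 124 in CM and 167 in CMT, from 757, 399 and 320 reads. Here CM, and not CMT, was the low library. JUNB was 2.59-fold lower in CM than in IM (ratio 0.387, interval 0.342 to 0.437) and 1.92-fold lower in CMT than in IM (ratio 0.520, interval 0.455 to 0.594). Between CM and CMT it was the one gene of the 9 that was higher in CMT, by 1.34-fold (interval 1.16 to 1.56).

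ATF3, a stress-induced factor of the ATF/CREB family that can repress its targets, had an FPKM of 93.4 in IM, against 139 in CM and 52.4 in CMT. Like FOS, it was highest in CM and lowest in CMT. ATF3 was 1.49-fold higher in CM than in IM (interval 1.28 to 1.75), 2.66-fold lower in CMT than in CM (ratio 0.376, interval 0.303 to 0.464) and 1.78-fold lower in CMT than in IM (ratio 0.561, interval 0.443 to 0.707). The members of the AP-1 and ATF family were accordingly spread over 3 orders, with FOS and ATF3 highest in CM, JUN lower at each step, and JUNB lowest in CM.

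**Figure D1:**
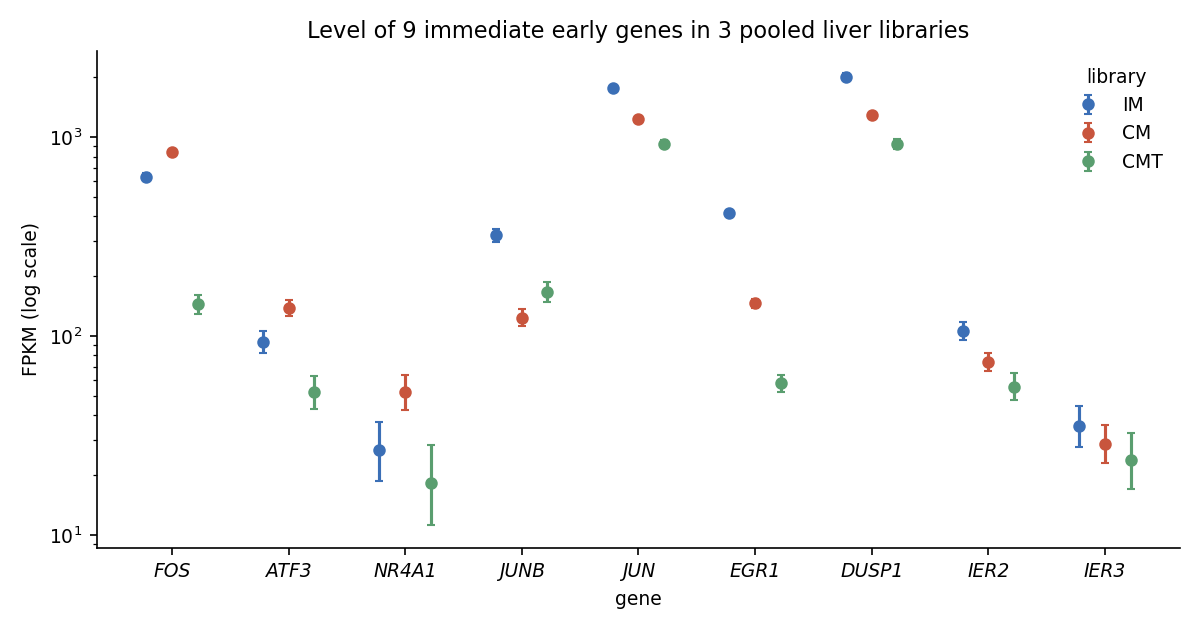
FPKM (log axis) of the 9 immediate early genes in the pooled liver libraries IM, CM and CMT. Each point is 1 library and each bar is the 95% exact Poisson interval of its recovered reads, which covers counting error only. The CMT point is the lowest of 3 for every gene but JUNB, whose lowest point is CM at 124.

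EGR1, a zinc finger factor that binds GC-rich promoters and is induced by growth signals, had an FPKM of 417 in IM, against 147 in CM and 57.9 in CMT. The reads behind these values numbered 3314, 1586 and 374. EGR1 was lower at each step, 2.85-fold from IM to CM (ratio 0.351, interval 0.331 to 0.373) and 2.53-fold from CM to CMT (ratio 0.395, interval 0.352 to 0.443). Over both steps the FPKM of EGR1 differed by 7.20-fold (ratio 0.139, interval 0.124 to 0.155), the widest ratio among the 9 genes. In IM, 88.6% of the mRNA features above the FPKM minimum of 1 lay below EGR1, against 75.3% in CM and 54.3% in CMT.

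NR4A1, an orphan nuclear receptor that cyclic AMP and growth signals induce, had the lowest level of the 9 genes in IM and CMT. Its FPKM was 26.8 in IM, against 52.5 in CM and 18.3 in CMT, from 36, 96 and 20 reads. NR4A1 was 1.96-fold higher in CM than in IM (interval 1.32 to 2.96) and 2.86-fold lower in CMT than in CM (ratio 0.349, interval 0.204 to 0.570). CM thus stood above both other libraries for NR4A1. Between CMT and IM the interval of the ratio ran from 0.375 to 1.21, so that no difference was detectable on the recovered reads. The recovered length of NR4A1, 535 bases, was the smallest that made the values whole. Its reads may therefore lack a common factor, in which case these intervals are too wide.

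DUSP1, the phosphatase that inactivates MAP kinases and so ends the signal, had an FPKM of 2021 in IM, against 1294 in CM and 926 in CMT, on reads of 2800, 2442 and 1043. DUSP1 was the highest of the 9 genes in each library. It was 1.56-fold lower in CM than in IM (ratio 0.640, interval 0.606 to 0.676), 1.40-fold lower in CMT than in CM (ratio 0.716, interval 0.665 to 0.770) and 2.18-fold lower in CMT than in IM (ratio 0.458, interval 0.426 to 0.492). Scaled to the recovered reads, its log2 ratio of CM to IM was -0.36 instead of -0.64 and no longer passed 1.5-fold. The recovered length of DUSP1 was 552 bases, and the smallest length that made the values whole was taken, so its reads may lack a common factor, in which case the intervals are too wide.

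IER2, a growth-factor-inducible nuclear protein, had an FPKM of 106 in IM, against 74.5 in CM and 55.8 in CMT, with the same stepwise order as JUN and DUSP1. IER2 was 1.43-fold lower in CM than in IM (ratio 0.701, interval 0.605 to 0.812) and 1.34-fold lower in CMT than in CM (ratio 0.748, interval 0.618 to 0.903). Only over both steps did IER2 pass 1.5-fold, at 1.91-fold (ratio 0.525, interval 0.434 to 0.632). IER3, a regulator of cell survival that NF-kB and stress signals induce, had an FPKM of 35.3 in IM, against 28.8 in CM and 23.8 in CMT. Its order was that of IER2, but its reads numbered 73, 81 and 40. The ratio of IER3 was 0.814 for CM to IM (interval 0.586 to 1.13), 0.828 for CMT to CM (interval 0.552 to 1.22) and 0.674 for CMT to IM (interval 0.447 to 1.0). All 3 intervals reached 1, and no difference in IER3 was detectable at this depth.

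**Figure D2:**
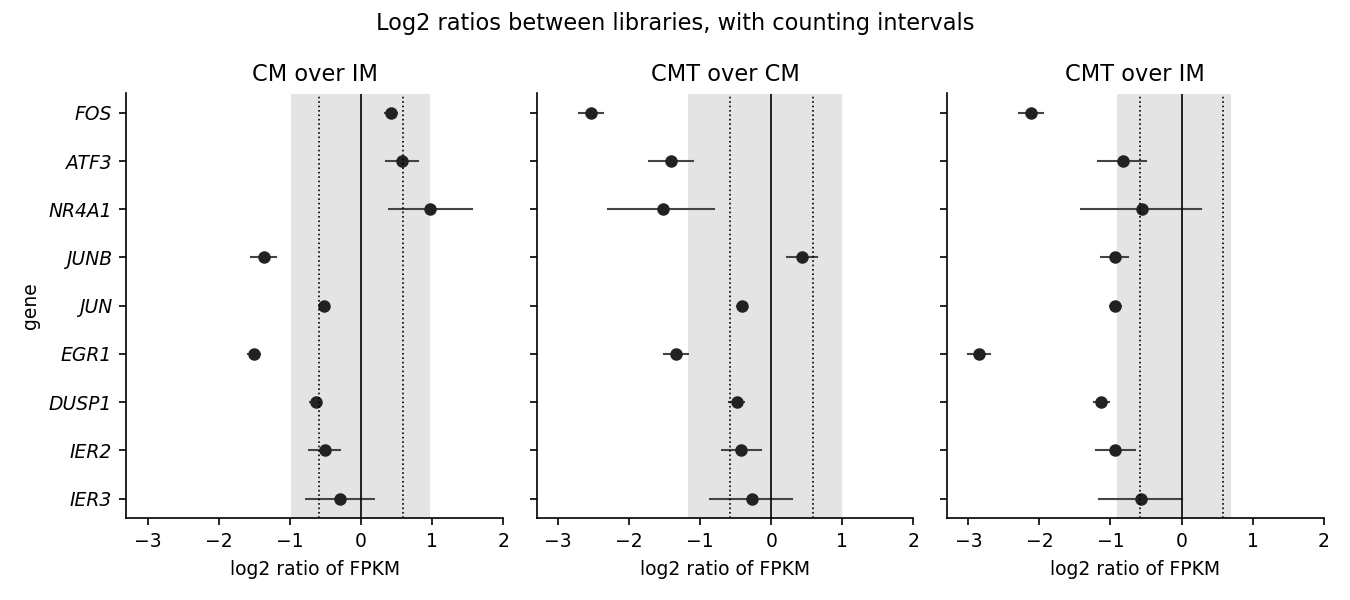
log2 ratios of FPKM for the 9 immediate early genes in CM vs IM, CMT vs CM and CMT vs IM, with bars for the 95% exact intervals on the recovered reads. The grey band holds the 5th to 95th percentile of all mRNA features above the minimum, and dotted lines mark 1.5-fold. The ratio of CMT to IM is below 0 for all 9 genes, from -0.55 for NR4A1 to -2.85 for EGR1, while FOS, ATF3 and NR4A1 lie above 0 in CM vs IM.

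A feature was counted as higher or lower past 1.5-fold when it was mRNA with all 3 FPKM values at 1 or more, which 15613 of 22945 mRNA features met. All 6 of the listed genes counted here met it. In CM compared with IM, 0 of the 6 were higher and 3 were lower, JUNB, EGR1 and DUSP1, where 11.1% of all features were higher and 12.1% lower. In CMT compared with CM, 0 were higher and 2 were lower, FOS and EGR1, against 12.1% and 13.5% of all features. In CMT compared with IM, 0 were higher and 5 were lower, every one except IER3, against 6.67% and 10.1% of all features. Since these libraries chose the list, nothing is read from the distance between the counts and these shares. The comparisons also share libraries, each library standing in 2 of them, and their values are given side by side for that reason.

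Medians of the 6 genes on the log2 scale were -0.58 for CM to IM, -0.45 for CMT to CM and -1.03 for CMT to IM. The corresponding medians of all mRNA features were -0.02, 0.01 and -0.01. With JUN, ATF3 and NR4A1 added, the medians over 9 genes were -0.51, -0.48 and -0.93. With these 3 genes also counted, NR4A1 was the single gene higher in CM than in IM past 1.5-fold as deposited. ATF3, at 1.49-fold, passed under all 4 scalings, with log2 ratios from 0.60 to 0.86. With the 3 genes counted, 4 genes were lower in CMT than in CM, FOS, EGR1, ATF3 and NR4A1. Scaling also moved the last count over the 6 genes. With the libraries scaled to the recovered reads, IER2 and DUSP1 joined FOS and EGR1 among the genes lower in CMT than in CM.

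CMT was the lowest library for 5 of the 6 genes, and for 8 of the 9, JUNB being the exception. Among all mRNA features, 32.7% were lowest in CMT. The order IM above CM above CMT was shown by EGR1, IER2, IER3, DUSP1 and JUN, where 13.3% of all features had it. The order CM above IM above CMT was shown by FOS, ATF3 and NR4A1, and by 19.4% of all features. The order IM above CMT above CM was shown by JUNB alone of the 9, and by 18.3% of all features. The difference between the 2 larger groups of genes therefore lay in CM, which stood below IM for one group and above it for the other.

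**Figure D3:**
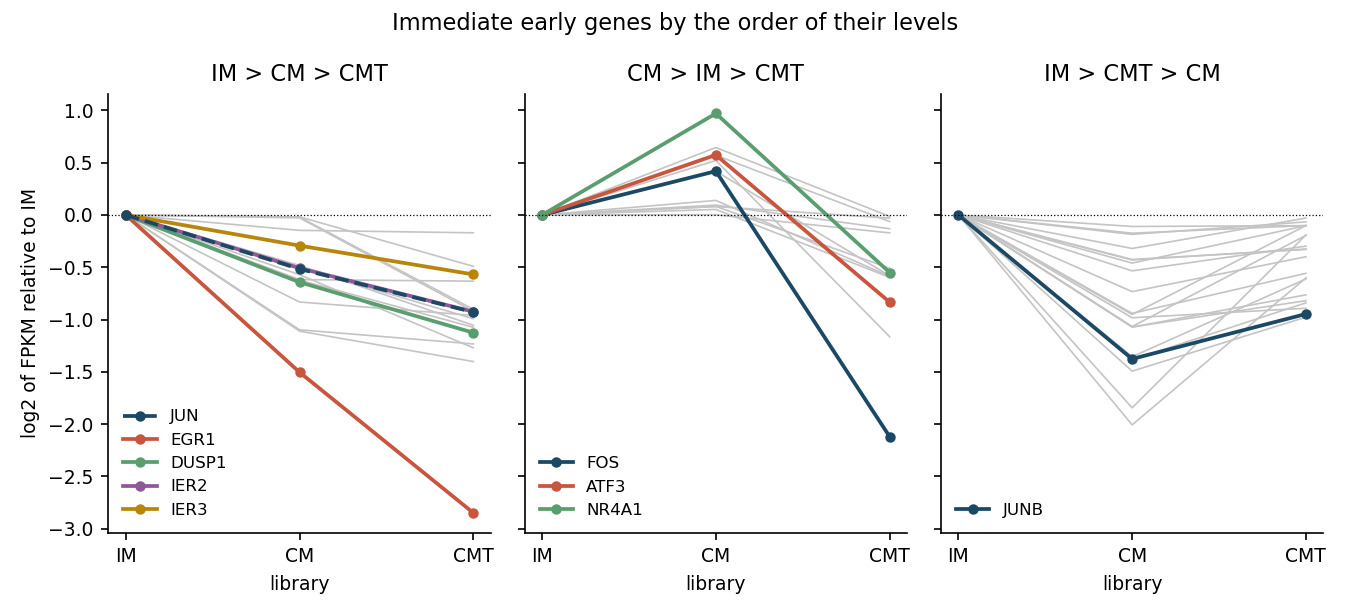
log2 FPKM of each immediate early gene relative to IM, with 1 point per library and 1 panel for each order of the 3 libraries. Coloured lines are the 9 genes, and grey lines are the other early response genes with that order. The lines of FOS, ATF3 and NR4A1 go up at CM and then down, the line of JUNB goes down and then partly up, and the lines of EGR1, DUSP1, IER2, IER3 and JUN go down at both steps. The line of JUN is dashed because it lies over that of IER2.

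The ratio of 2 genes within a library does not depend on how the libraries were scaled to each other, and so shows which genes departed from one another. The pairs were chosen after the values were seen, and the interval of a change in such a ratio is the exact conditional 95% interval of the odds ratio of the 4 read numbers. FOS was 1.51 times as high as EGR1 in IM, against 5.75 times in CM and 2.50 times in CMT, on FPKM, which is per length. The FOS to EGR1 ratio was thus 3.80-fold higher in CM than in IM (interval 3.50 to 4.14) and 2.30-fold higher in CM than in CMT (interval 1.95 to 2.70). It was also 1.66-fold higher in CMT than in IM (interval 1.41 to 1.95). FOS thus stood furthest above EGR1 in CM, but the ratio differed between all 3 libraries.

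FOS also stood highest in CM relative to its AP-1 partners. The ratio of FOS to JUN was 0.358 in IM, against 0.684 in CM and 0.157 in CMT, so that it was 1.91-fold higher in CM than in IM (interval 1.78 to 2.05) and 4.37-fold higher in CM than in CMT (interval 3.86 to 4.95). The ratio of FOS to JUNB was 1.96 in IM, against 6.77 in CM and 0.867 in CMT. In CMT alone, FOS was below JUNB, though their levels there were not separable by counting error (JUNB to FOS 1.15, interval 0.987 to 1.35). JUNB was 0.183 of JUN in IM, against 0.101 in CM and 0.181 in CMT, and its ratio to JUN in CMT was 0.990 of that in IM (interval 0.858 to 1.14). JUNB and JUN were thus lower in CMT than in IM by a like factor, and differed in CM.

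ATF3 relative to JUN gave 0.0530 in IM, against 0.113 in CM and 0.0566 in CMT. This ratio was 2.13-fold higher in CM than in IM (interval 1.82 to 2.51), while between CMT and IM the interval included 1 (ratio 1.07, interval 0.839 to 1.35). Of these 6 pairs, DUSP1 and JUN kept closest together, at 1.15 in IM, against 1.05 in CM and 1.0 in CMT. Even here, the ratio in CMT was 0.872 of that in IM, with an interval from 0.799 to 0.952.

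**Figure D4:**
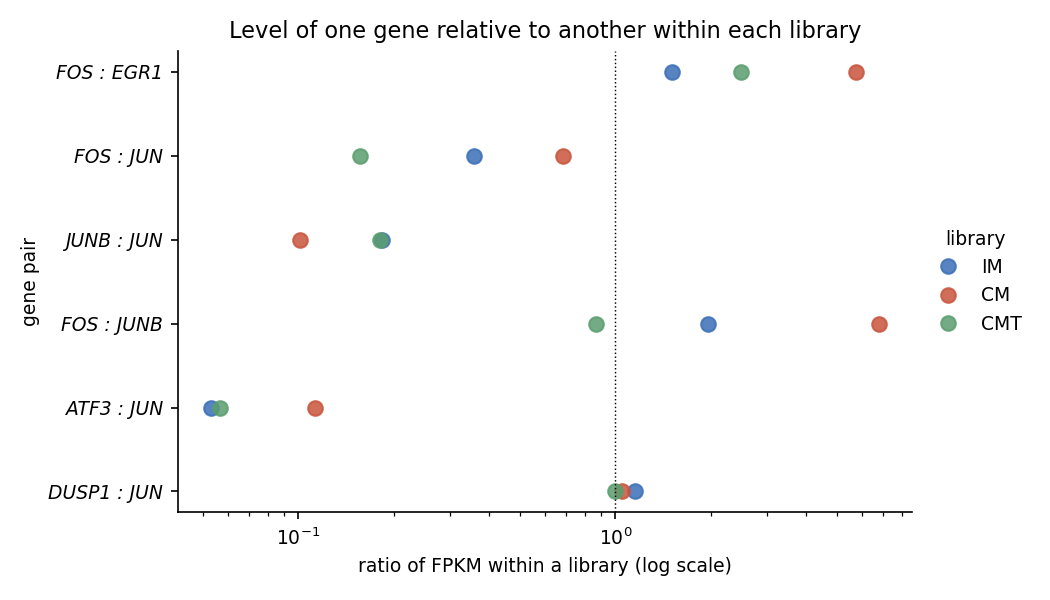
Ratios of the FPKM of 2 immediate early genes within each library (log axis), for 6 pairs, with 1 point per library and no error bars, since the intervals in the text are those of the change between libraries. The dotted line marks equal levels. The 3 ratios with FOS on top are highest in CM, JUNB to JUN is lowest in CM, and DUSP1 to JUN stays between 1.0 and 1.15.

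On FPKM, DUSP1, JUN and FOS were the highest of the 9 genes in IM and in CM, in that order. In CM the FPKM of DUSP1 and JUN differed by 1.05-fold (interval 1.0 to 1.10), and in CMT by 1.0-fold (interval 0.929 to 1.08). In CMT the third place was taken by JUNB. Other neighbours in the order were also not separated by counting error. These were IER2 and ATF3 in IM (1.14, interval 0.966 to 1.34), EGR1 and ATF3 in CM (1.05, interval 0.949 to 1.17), ATF3 and JUNB in CM (1.12, interval 0.979 to 1.28), and EGR1, IER2 and ATF3 in CMT. IER3 and NR4A1, at the low end, were not separated in IM (1.32, interval 0.873 to 2.02) or in CMT (1.30, interval 0.742 to 2.35). Summed over the 9 genes, the FPKM was 5412 in IM, against 3933 in CM and 2372 in CMT. Of the recovered reads, the 9 genes took 0.0458% in IM, against 0.0383% in CM and 0.0185% in CMT, and the sum was lowest in CMT on that scale as well.

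The rank of a gene among all mRNA features moved with its level. FOS lay above 91.9% of the features in IM, 94.2% in CM and 74.0% in CMT. JUNB lay above 86.1%, 72.0% and 76.8%. DUSP1 and JUN stayed among the most abundant transcripts, DUSP1 above 96.7%, 95.9% and 94.0% and JUN above 96.4%, 95.7% and 93.9%. ATF3 lay above 65.3%, 74.4% and 51.9%, and NR4A1 above 35.3%, 51.6% and 29.1%. For IER2 the shares were 68.4%, 60.7% and 53.3%, and for IER3 41.7%, 36.6% and 33.9%. EGR1, FOS, ATF3 and NR4A1 thus changed rank between the libraries by far more than DUSP1 and JUN, which stayed above 93.9% of the features or more.

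Other genes of the same response were read from lists of general gene function. Each list below was also chosen with earlier results of these data known. As for the 6 genes, nothing is read from the distance between list counts and the shares of all features. Of 50 other early response genes, 48 were found and 47 passed the FPKM minimum. In CMT compared with IM, 0 of the 47 were higher and 20 were lower past 1.5-fold, which is 42.6% against 10.1% of all features, with a median log2 ratio of -0.49. In CM compared with IM, 3 were higher and 17 (36.2%, against 12.1% of all features) lower, with a median of -0.42. In CMT compared with CM, 5 were higher and 12 (25.5%, against 13.5%) lower, with a median of -0.02. The median of the wider list lay below 0 in CMT vs IM, as the 9 genes did. As deposited, its most frequent order was that of JUNB. The order IM above CMT above CM was shown by 20 genes, IM above CM above CMT by 12, and CM above IM above CMT by 10, where 18.3%, 13.3% and 19.4% of all features had them. With the libraries scaled to the recovered reads, CM had 6 genes above and 13 below IM, and 16 were lower in CMT than in IM. The orders were counted as deposited only. Some genes with the order of JUNB had log2 ratios of CMT to CM smaller than the 0.24 by which that scaling lowers them. KLF4 (0.09), KLF10 (0.09) and ZFP36L1 (0.01), named after their values were seen, are examples. Which order was most frequent therefore depends on the scaling and was not settled.

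SIK1, a kinase induced by cyclic AMP, had an FPKM of 607 in IM, against 151 in CM and 400 in CMT. NFIL3, a leucine zipper repressor of the circadian clock, had an FPKM of 725, 202 and 635 in the same order. Both were lowest in CM, as JUNB was. The paralogs of EGR1 and NR4A1 were low in FPKM. EGR3 had an FPKM of 1.18 in IM, against 4.18 in CM and 1.45 in CMT, on 12, 58 and 12 reads, and NR4A3 had 3.45, 4.95 and 1.54. EGR3 thus stood highest in CM, where EGR1 was below IM, while NR4A3 had the order of NR4A1. For NR4A3 the interval of the ratio of CM to IM, 0.986 to 2.11, held 1. EGR2, with 14.3, 10.1 and 7.19, had the order of EGR1 in its values, and NR4A2, with 21.5, 21.2 and 11.5, did not have that of NR4A1. EGR2 rested on 27, 26 and 11 reads, and its intervals held 1 in every comparison, so its order was not resolved. Nor were CM and IM separated for NR4A2 (ratio 0.985, interval 0.725 to 1.34). EGR2 and NR4A2 were named after their values were seen. EGR4 was listed at 0 in all 3 libraries. The 3 early genes that were higher in CM than in IM past 1.5-fold were EGR3, CTGF and RND3, of which CTGF and RND3 were named after their values were seen.

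Of 19 further AP-1, ATF and small MAF genes, 17 were found and 15 passed the minimum. In CM compared with IM, 1 was higher and 3 were lower, in CMT compared with CM 3 were higher and 3 lower, and in CMT compared with IM 1 was higher and 4 were lower. As shares of the 15, higher and lower, these were 6.67% and 20.0%, 20.0% and 20.0%, and 6.67% and 26.7%. All features gave 11.1% and 12.1%, 12.1% and 13.5%, and 6.67% and 10.1%. The median log2 ratios of the 15 were 0.05, -0.11 and -0.08. Scaled to the recovered reads, 4 were higher and 1 was lower in CM than in IM. In CM compared with IM, the larger of these counts thus depended on the scaling. BATF, a partner of JUN proteins in lymphocytes, had an FPKM of 22.5 in IM, against 36.9 in CM and 20.3 in CMT. JDP2, a repressor of AP-1, had 38.4, 39.8 and 20.9. CREM, a cyclic AMP-responsive regulator, had 48.6, 16.2 and 31.7, and CREB3L3, a liver factor of lipid and acute phase genes, had 2838, 1682 and 3300. BATF and JDP2 were lowest in CMT, whereas CREM and CREB3L3 were lowest in CM.

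Proteins that switch the response off or carry its signal were read in the same way. Of 10 MAP kinase phosphatases other than DUSP1, 8 passed the minimum, of which 1 was lower in CM than in IM, 2 were higher and 1 was lower in CMT than in CM, and 1 was higher in CMT than in IM. DUSP14 had an FPKM of 186 in IM, against 61.2 in CM and 193 in CMT. DUSP2 had 77.8, 53.6 and 86.6, and DUSP6, which acts on ERK and is induced by it, had 274, 309 and 195. Of the 3, DUSP6 alone was lowest in CMT, as DUSP1 was. Of 29 kinases, SRF cofactors and feedback proteins upstream of the early genes, 26 passed the minimum, with 1 above and 0 below IM in CM, 0 above and 4 below CM in CMT, and 0 above and 2 below IM in CMT. For this list and the phosphatases, the shares of all features in CM vs IM were 11.1% higher and 12.1% lower. They were 12.1% and 13.5% in CMT vs CM, and 6.67% and 10.1% in CMT vs IM. Scaled to the recovered reads, 5 of the 26 were above IM in CM. NAB2, which binds EGR proteins and holds them in check, had an FPKM of 6.55 in IM, against 11.8 in CM and 6.17 in CMT. MAPKAPK2, a kinase of the p38 pathway, had 71.5, 105 and 61.0. The FPKM of both was highest in CM, an order unlike that of EGR1.

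Genes of tissue stress were read because the early genes also respond to handling. Of 18 hypoxia genes, 17 were found. In CM compared with IM, 4 were higher and 3 lower, in CMT compared with CM 4 were higher and 5 lower, and in CMT compared with IM 0 were higher and 1 was lower. As shares of the 17, higher and lower, these were 23.5% and 17.6%, 23.5% and 29.4%, and 0% and 5.88%. All features gave 11.1% and 12.1%, 12.1% and 13.5%, and 6.67% and 10.1%. Scaled to the recovered reads, 1 and not 4 of the hypoxia genes was higher in CMT than in CM. EGLN3, an oxygen-sensing hydroxylase, had an FPKM of 12 in IM, against 38.4 in CM and 8.89 in CMT, and PFKFB3, a regulator of glycolysis, had 31.5, 103 and 36.7. P4HA1, a collagen prolyl hydroxylase, went the other way, with 654, 265 and 530. Hypoxia genes were thus divided in CM, and in CMT 1 of 17, ANKRD37, was lower than in IM past 1.5-fold. ANKRD37 was named after its values were seen.

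Of 15 heat shock genes, 13 were found, and HSPA1A and HSPA1B were not. In CMT compared with IM, 7 were higher and 0 lower, which is 53.8%, and their median log2 ratio was 0.59. The all-feature shares for that comparison were 6.67% higher and 10.1% lower. The list median therefore lay on the other side of 0 from the median of the early genes, although BAG3, HSP90AB1 and DNAJB1, the last 2 named after their values were seen, lay below 0. In CM compared with IM, 3 of the 13 were higher and 2 lower, and in CMT compared with CM 3 were higher and 0 lower, or 2 and 2 when scaled to the recovered reads. All features gave 11.1% higher and 12.1% lower in CM vs IM, and 12.1% and 13.5% in CMT vs CM. CRYAB, a small chaperone, had an FPKM of 1238 in IM, against 741 in CM and 1971 in CMT, and BAG3, a chaperone partner, had 909, 284 and 716. HSPH1, a large chaperone, had 69.2, 120 and 105. Under upper quartile scaling 4 and not 7 of the 13 were higher in CMT than in IM. The part of tissue handling in the levels of the early genes was not tested.

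Markers of the cell types that a liver sample can hold were also read. Hepatocyte markers were the most abundant in all libraries, with a summed FPKM of 1030433 in IM, against 756261 in CM and 797839 in CMT. Markers of several cell types moved with the groups. The 9 T and NK cell markers summed to an FPKM of 596 in IM, against 765 in CM and 481 in CMT. Of these, 6 (66.7%, against 13.5% of all features) were lower in CMT than in CM past 1.5-fold. The order CM above IM above CMT, that of FOS, ATF3 and NR4A1, was shown by 7 of 9, against 19.4% of all features. Past 1.5-fold, 0 of the 9 were higher in CM than in IM as deposited, against 11.1% of all features. Scaled to the recovered reads, 6 were higher. CD8A, for example, had an FPKM of 59.5, 82.5 and 33.5. The 7 neutrophil markers summed to 177, 94.1 and 64.2, and 3 of them, S100A8, S100A9 and S100A12, had the order of EGR1 and DUSP1. Among all features, 13.3% had that order. S100A8 had 41.3, 15.2 and 2.54, on 20, 10 and 1 reads. The intervals of the ratio of CMT to CM reached up to 1.18 for S100A8, 1.30 for S100A9 and 1.93 for S100A12. All 3 held 1, so the step from CM to CMT in that order was not resolved. The other 4 did not share that order, with CSF3R, the receptor of a neutrophil growth factor, at 13.4, 17.4 and 15.4 and MPO at 2.98, 1.70 and 3.26. CSF3R was named after its values were seen. Of the 5 erythroid markers found, the 3 above the minimum were lower than in IM past 1.5-fold in both CM and CMT. Of all features, 12.1% were lower in CM and 10.1% in CMT. HBB, the beta globin of red cells, had an FPKM of 17158 in IM, against 3400 in CM and 5151 in CMT. AHSP was at 0 in CM. Kupffer cell and macrophage markers summed to 16612, 16415 and 17993, of which C1QA, C1QB and C1QC made up the most. MARCO, a scavenger receptor of Kupffer cells, had an FPKM of 414, 82.8 and 317, and CD163 had 1305, 909 and 1386, so that both were lowest in CM, as JUNB was. Of the 8 markers found, MARCO alone had the whole order of JUNB, which 18.3% of all features had. C1QA and VSIG4 were also lowest in CM, but CSF1R and CD14 were lowest in CMT, and C1QB and C1QC in IM. VSIG4, CSF1R and CD14 were named after their values were seen. Cholangiocyte markers summed to 93.8, 167 and 106. Of the 4 above the minimum, 3 were higher in CM than in IM past 1.5-fold, against 11.1% of all features. The count was the same under each of the 4 scalings, which do not address counting error. Of the 3, SOX9 rested on 8, 20 and 8 reads, and its interval for CM to IM, 0.774 to 4.82, held 1. That of CFTR ran from 1.02 to 2.84. EPCAM, an epithelial adhesion molecule of bile ducts, had 36.6, 62.6 and 41.4. It was highest in CM as FOS was, but lowest in IM, whereas FOS was lowest in CMT. In tissue RNA, fewer cells of a type and less RNA per cell cannot be told apart, and the part of other cell types in the levels of the early genes was not tested.

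**Figure D5:**
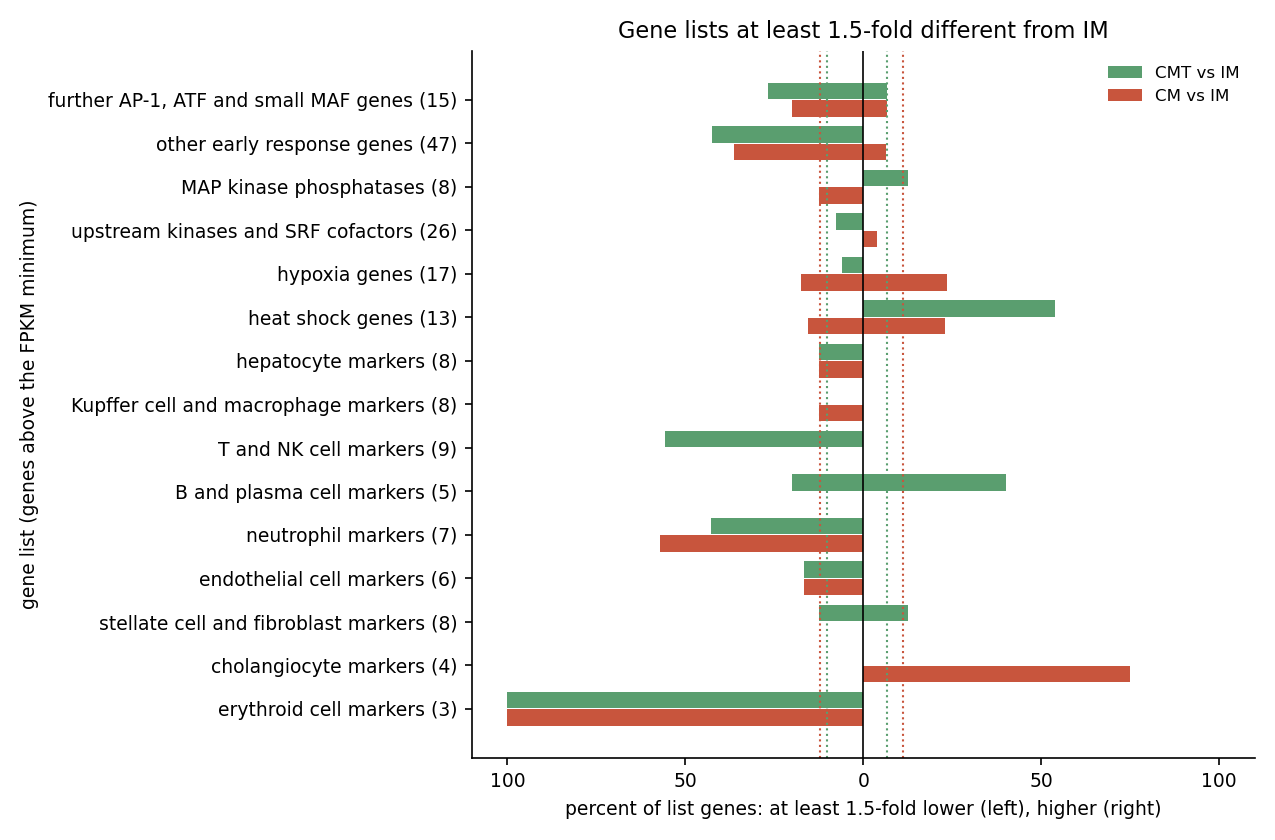
Percent of the genes of each list above the FPKM minimum (number in brackets) that were at least 1.5-fold lower (left) or higher (right) than in IM, for CM and CMT. Dotted lines give the same shares among all 15613 mRNA features. Other early response genes are lower in CMT for 42.6% and heat shock genes are higher for 53.8%.

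The features whose ratios lay nearest to the median ratios of the 6 early genes were sought among 12119 mRNA features whose FPKM reached 10 in every library. The measure was the distance between pairs of log2 ratios, CM to IM and CMT to CM, over 3 libraries. The nearest were CHL1 (distance 0.014), GADD45G (0.045), LOC100739248 (0.053), LOC102158495 (0.075), LOC100737091, which RefSeq names COL4A5 (0.091), and POC5 (0.100). GADD45G, a stress-inducible gene that was also on the list of other early response genes, had an FPKM of 1194 in IM, against 775 in CM and 567 in CMT. With 3 libraries, this likeness is a description only. The median of the 6 genes is the midpoint of IER2 and DUSP1 in both ratios, so their own distance of 0.07 follows from its construction. IER3 lay at 0.33, JUNB at 1.18, EGR1 at 1.29 and FOS at 2.31. Of the 3 genes that did not enter the median, JUN lay at 0.07, ATF3 at 1.5 and NR4A1 at 1.88.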

How the data were processed

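Liver RNA of 3 groups of pigs was pooled within each group, enriched for poly-A RNA and sequenced from both ends. The authors checked reads with FastQC, mapped them to the pig genome build Sscrofa10.2 with TopHat, and deposited 1 FPKM value per feature and library. The counting program, its use of strand and the annotation are not given in the sources used here. Both mates of a pair may have been counted.

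Here each FPKM was written as reads per kilobase over a library divisor, and the smallest length up to 10000 bases that made all 3 values whole gave the reads, for 23093 of 24277 features above 0. The recovery was tested on simulated data. Groups, 1 library each, came from the labels. Ratios were taken without rescaling or pseudocount. Counts past 1.5-fold took mRNA features whose FPKM reached 1 in all 3 libraries. The gene IDs of 23 features had been turned into dates and match no symbol.

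The genes and lists were chosen with earlier results of these data known. Named were all listed genes, at most 4 of each further list with the largest ratios past 1.5-fold in CM vs IM or CMT vs CM (CMT vs IM did not enter this rule), and the 6 features nearest to the median. Names were matched through RefSeq tables of another assembly, so no coordinates are given. Comparisons of promoter and protein sequence were not made here. The alternatives set a minimum of 10 FPKM or no minimum, added a pseudocount of 1, moved the threshold to 2-fold, applied 4 scalings, or asked for an interval on 1 side of 1. Added after seeing the data were counting JUN, ATF3 and NR4A1 too, and intervals on 1 in 2 reads. Software was scipy 1.17.1, numpy 2.4.6 and pandas 2.3.3, with matplotlib 3.10.9 for figures, under Python 3.11.15.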

Additional observations from a re-analysis of the deposited data

How the results depend on the processing

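Counts of the 6 genes past 1.5-fold moved by over 1.5 times, or from 0, in these cases. With NR4A1, JUN and ATF3 also counted, which was chosen after seeing the data, CM had 1 gene above IM, and CMT had 4 below CM. Scaling by the column sum or to the recovered reads gave 1 gene, FOS, higher in CM than in IM, and 4 lower in CMT than in CM. At 2-fold, 3 genes were lower in CMT than in IM. For CM vs IM the median became -0.32 on the log2 scale under column sums and -0.30 under recovered reads, and for CMT vs CM it became -0.70 and -0.69. The cause is the shift that the scaling itself applies, 0.26 and -0.25 for column sums. Smaller moves were from 3 to 2 lower in CM than in IM at 2-fold and under upper quartile, column sum and recovered reads scaling, and, under upper quartile scaling, to 3 lower in CMT than in CM and to 6, IER3 included, lower in CMT than in IM. Of 66 counts under alternatives, 59 stayed within 1.5 times. Of 135 values of single genes 108 stayed within their counting interval, of 24 medians 20 moved by no more than the median half-width of such intervals, and 0 reversed. Intervals on 1 in 2 reads left the same 8, 8 and 7 of 9 genes with an interval on 1 side of 1 in CM vs IM, CMT vs CM and CMT vs IM.

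No paired analysis was possible because each group has 1 pooled library, nor was any library left out. The intervals hold counting error only, and the spread between pigs is unknown. Depth limited IER3 and NR4A1, which had under 100 reads in each library, and genes of the further lists such as EGR2, EGR3 and NR4A3.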
